A study of Mus musculus with 18 samples.

Results

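Nr4a1, Nr4a2, Nr4a3, Egr1, Egr2 and Egr3 are 6 genes for transcription factors that T cells switch on within a short time of a signal through the T cell receptor. They were chosen by family and name, with earlier results of these data known. They are 6 of the 55494 genes listed in the deposited count table, of which 19151 had at least 1 count. All 6 were among the genes with a count. Their RNA was followed across single thymocytes by coreceptor, transgenic receptor and host.

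The groups compare developing T cells of known specificity in a thymus set up for no selection, positive selection or negative selection. All mice were female mixed bone marrow chimeras of 14 weeks of age, made with 30% donor marrow (OT1 CD45.1.2 or OT2 CD45.1.2, strain B6) and 70% B6.CD451(MV) competitor marrow and taken 6 weeks after transplant. Thymocytes were sorted as CD44lo, CD45.1.2+, Va2+ and Vb5+, and each of the 6 mice gave an RNA, an antibody and a receptor library from 1 lane of the 10x Genomics 5' chemistry. The receptor libraries were not analysed here. OT1 is a transgenic receptor restricted by MHC class I and OT2 one restricted by MHC class II, both specific for ovalbumin. PosSelected hosts were wild type C57BL6/Ncr. NegSelected hosts were RIPmOVA (the transgene Ins2-TFRC/OVA, line 296Wehi on C57BL/6), in which the rat insulin promoter drives a membrane-bound ovalbumin, an antigen made in the thymus by medullary epithelial cells. The NoSelection host was b2m KO for OT1 and MHCII KO for OT2, both B6.Ly5.1/Ncr, although a comment in the labels calls the OT2 host b2m KO as well. There was 1 mouse for each receptor and host. Differences between 2 mice therefore had no replicate check, and the tests below rest on terms for receptor and host fitted over all 6 mice.

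Nr4a1 (Nur77), Nr4a2 (Nurr1) and Nr4a3 (Nor1) are orphan nuclear receptors that bind DNA without a known natural ligand, and in thymocytes they are known for their part in the death of self-reactive cells and in the agonist-selected lineages. Egr1, Egr2 and Egr3 are zinc finger factors downstream of the Ras and ERK pathway, needed together for efficient positive selection, and they are held in check by the corepressors Nab1 and Nab2. Reporter mice for Nr4a1 are used as a readout of receptor signal strength, since its level follows the strength of the signal.

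The start regions of the Nr4a genes carry repeated core motifs of the cyclic AMP response element, and the Egr2 start carries a CArG box, the site of serum response factor. Stretches of 30 bases are shown because they hold these letters. Capitals mark the core motif TGACG on either strand (CGTCA on the other) and, in Egr2, the CArG box.
Nr4a1: CGTCAatggaaccccgcgtgCGTCAcgcgc
Nr4a2: TGACGgggccgcTGACGcgcttggccgcgg
Nr4a3: CGTCAcatTGACGtctcgcattccaggcac
Egr2: CCATATATGGgcagcgaCGTCAcgggtatt

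The sequences are from RefSeq on GRCm38.p6, the assembly of mm10, and run 5′ to 3′ on the strand of the gene. The Nr4a1 stretch is chr15:101266613-101266642 on the plus strand, 233 to 204 bases before the start, and the Nr4a2 stretch is chr2:57124097-57124126 on the minus strand, 123 to 94 bases before it. The Nr4a3 stretch is chr4:48045092-48045121 on the plus strand, 213 to 184 bases before the start, and the Egr2 stretch is chr10:67537797-67537826 on the plus strand, 72 to 43 bases before it. Each start is the one used for that window. For Nr4a1, Nr4a3 and Egr2 this start and the stretch lie inside the annotated gene, whose coordinates are given below. The Nr4a2 stretch lies outside its annotated gene. In the 250 bases before the start, Nr4a1, Nr4a2 and Nr4a3 each held 4 matches of the core motif. Of 32851 such windows in the table, 17.8% held at least 1 match and 0.137% held 4 or more. The table has 5 windows for Egr2, of which 3 held 2 core motifs each and 4 held a CArG box, a motif found in 1.47% of all windows. No window of the 4 genes held a full cyclic AMP response element (TGACGTCA, 1.55% of all windows), the Nr4a monomer site AAAGGTCA (1.34%) or the Egr site GCGTGGGCG (0.536%). The search also covered the MEF2 site (0.508% of all windows) and the AP-1 site (4.46%), which no window of the 4 genes held. The NFAT core GGAAA (55.6%) had 1 match in the Nr4a2 window, 0 to 3 in the Egr2 windows and 0 in those of Nr4a1 and Nr4a3. A match is a description of the letters only, and the motifs were chosen with these windows in view. Egr1 and Egr3 have no sequence here. All 6 are annotated as protein coding: Nr4a2 at chr2:57106830-57124003, Nr4a3 at chr4:48045078-48086447, Egr2 at chr10:67534469-67542188, Egr3 at chr14:70077317-70082613, Nr4a1 at chr15:101253902-101274795 and Egr1 at chr18:34861207-34864956.

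The files held 1331 cells, from 108 to 306 a mouse, with 525843 to 1867488 RNA UMIs a mouse (a UMI is 1 counted molecule). Median UMIs per cell were 4733 to 5385 in the OT1 mice and 2756 to 3021.5 in the OT2 mice, so shares of cells with a UMI were also computed after each cell was thinned to 1500 UMIs. No barcode occurred in more than 1 mouse. The 6 T cell markers (Cd3e, Cd3d, Trac, Trbc1, Trbc2 and Lck) were present in every mouse. In the cells negative for both coreceptors Trac stood at 251 CPM (UMIs of a gene scaled to library size, per 1e6 UMIs) against 3569 in the double positive cells, and the gamma delta T cell gene Trgc1 at 533 against 1.86. No cell type known to lack the 6 genes was in the sort, so the share of cells that free RNA would give was not measured.

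At least 1 of the 6 RNAs was detected in 351 of the 1331 cells (26.4%), and in 215 of the 1260 cells deep enough for thinning (17.1%). Most such cells held 1 of the genes: 235 cells had 1, 76 had 2, 23 had 3, 11 had 4, 4 had 5 and 2 had all 6. The 2 cells with all 6 RNAs were both CD4-CD8-, 1 from the OT1 NoSelection and 1 from the OT2 NoSelection mouse. Egr1 was found in 252 cells (18.9%), Nr4a1 in 119 (8.94%), Egr2 in 65 (4.88%), Nr4a3 in 37 (2.78%), Nr4a2 in 30 (2.25%) and Egr3 in 29 (2.18%). These shares follow transcript capture as well as expression and are not a ranking of the genes. Single cells carried much of each RNA: a cell held up to 68 UMIs of Egr1 and up to 35 of Nr4a1, and the 3 highest cells held 33.3% of all Nr4a2 UMIs, 28.3% of Egr3, 25.2% of Nr4a3, 18.7% of Nr4a1, 16.2% of Egr2 and 14.4% of Egr1. Egr4, the remaining Egr family gene, had 0 UMIs.

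Among the Nr4a genes, the NegSelected mouse had the highest Nr4a1 and Nr4a3 levels of the 3 hosts for both receptors. Nr4a1 stood at 49.3, 38.7 and 76.8 CPM in the OT1 mice (NoSelection, PosSelected, NegSelected) and at 108, 21.1 and 158 CPM in the OT2 mice in the same order. In order of level, the OT2 PosSelected mouse was lowest, and its exact Poisson 95% interval of 12.3 to 33.8 CPM overlapped that of the next mouse, OT1 PosSelected, at 30.3 to 48.7. The OT2 NegSelected mouse was highest, and its interval of 127 to 193 CPM overlapped that of the OT2 NoSelection mouse, at 82.1 to 140. In that OT2 NoSelection mouse 1 cell held 47.4% of the 57 Nr4a1 UMIs, and the level without that cell was 58.3 CPM. In the OT1 NegSelected mouse 1 cell held 35.7% of 98 UMIs. With the top cell of each mouse left out, the OT1 levels were 39.8, 31.8 and 49.6 CPM (NoSelection, PosSelected, NegSelected). Intervals of levels and shares cover counting error alone, since cells of 1 mouse are not replicates.

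Nr4a3, which overlaps Nr4a1 in function in thymocytes, stood at 6.43, 9.67 and 29.0 CPM in the OT1 mice (NoSelection, PosSelected, NegSelected) and at 11.4, 7.45 and 61.1 CPM in the OT2 mice. The 2 NegSelected mice were the 2 highest, and the interval of the lower of them (OT1, 20.4 to 39.9 CPM) overlapped that of the OT2 NoSelection mouse (4.19 to 24.8), which rested on 6 UMIs in 2 cells. The ratio of NegSelected to PosSelected was 3.0 in OT1 (counting interval 1.66 to 5.59) and 8.20 in OT2 (3.42 to 23.8). For Nr4a1 the same ratios were 1.98 (1.45 to 2.73) and 7.47 (4.43 to 13.4). Both genes thus had the larger ratio in OT2, a difference between receptors that was not tested with 1 mouse a group.

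Nr4a2 was sparse, with 51 UMIs in all. Its level was 9.64, 2.69 and 5.48 CPM in the OT1 mice and 15.2, 1.24 and 20.4 CPM in the OT2 mice, and the OT2 PosSelected value was 1 UMI. The PosSelected mouse was the lowest of the 3 hosts for each receptor.

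Among the Egr genes, the values of Egr1 and of Egr2 each ordered the hosts differently in the 2 receptors, which was not tested. Egr1 stood at 133, 141 and 129 CPM in the OT1 mice (NoSelection, PosSelected, NegSelected), which overlap within counting error, and at 60.9, 192 and 239 CPM in the OT2 mice. The OT2 NoSelection mouse was the lowest of all 6, with an interval of 41.6 to 85.9 CPM that overlapped none of the others, and 1 cell held 59.4% of its 32 Egr1 UMIs. The ratio of PosSelected to NoSelection was 1.06 in OT1 (0.888 to 1.27) and 3.16 in OT2 (2.15 to 4.78).

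Egr2, which shares its DNA site with Egr1, stood at 11.2, 16.1 and 21.9 CPM in the OT1 mice and at 15.2, 37.3 and 32.2 CPM in the OT2 mice. The NoSelection mouse was the lowest of its receptor both times. Egr3 was at 8.57, 6.98 and 7.05 CPM in the OT1 mice and at 7.61, 0 and 6.79 CPM in the OT2 mice. The 0 of 254 cells in the OT2 PosSelected mouse allows a share of up to 1.18% and a level of up to 3.73 CPM. The intervals of the other mice began at 1.85 to 4.90 CPM, so that limit lay below the interval of the OT1 NoSelection mouse alone.

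The balance of the 2 families was then compared between hosts. There were 0.43, 0.31 and 0.70 Nr4a UMIs per Egr UMI in the OT1 mice (NoSelection, PosSelected, NegSelected), and 1.61, 0.13 and 0.86 in the OT2 mice. PosSelected was the lowest host for each receptor and NegSelected was above it, a difference that was not tested. By coreceptor gate the values were 0.37 in CD4+CD8+, 0.78 in CD4+CD8-, 0.27 in CD4-CD8+ and 0.64 in CD4-CD8- cells. Gate makeup differed by mouse, as given below, and its part in the ratios was not tested. The highest value came from the OT2 NoSelection mouse, where 44 Egr UMIs and 71 Nr4a UMIs were counted. In that mouse a single cell held 27 Nr4a1 UMIs, and the top cell for Egr1 held 19 UMIs.

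**Figure D1:**
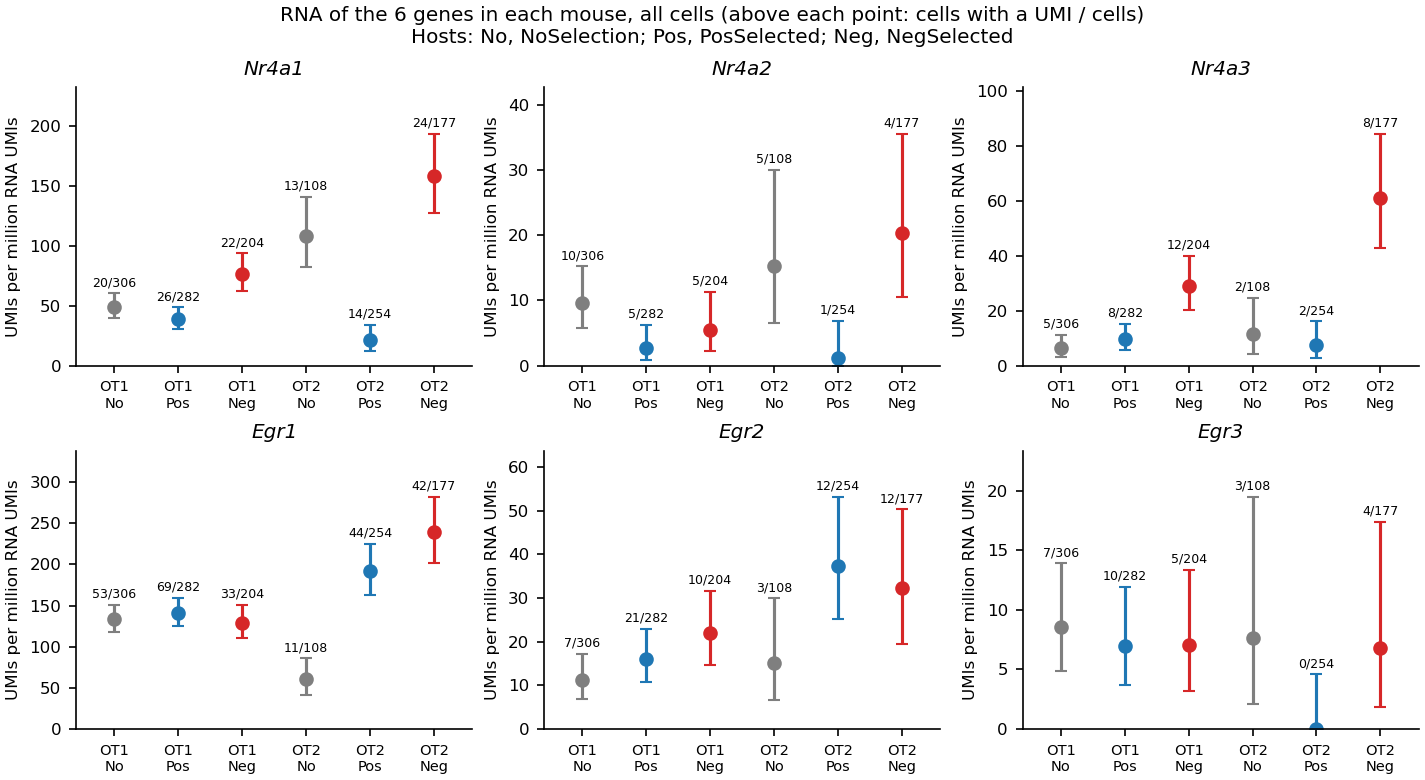
Level of each gene in the 6 mice, in UMIs per 1e6 RNA UMIs over all cells of a mouse, with exact Poisson 95% intervals that cover counting error only and the cells with a UMI of all cells above each point. Nr4a1 and Nr4a3 reach 158 and 61.1 in the OT2 NegSelected mouse, and Egr1 is lowest at 60.9 in the OT2 NoSelection mouse.

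In edgeR's quasi-likelihood test on counts summed per mouse, with Benjamini-Hochberg adjustment over 9092 genes, none of the 5 genes of the set that passed the filter on low counts was called between hosts (Egr3 did not pass). The test called 0 of all genes in NegSelected against NoSelection (0.0%, 236 genes at an unadjusted p under 0.05, DESeq2 called 0) and 0 in NegSelected against PosSelected (0.0%, 418 genes at an unadjusted p under 0.05, DESeq2 called 6). It called 1 gene (0.011%) in PosSelected against NoSelection and 97 genes (1.07%) in OT2 against OT1. The 3 host comparisons share mice, so their values are given side by side and not as support for each other. NegSelected against PosSelected gave a log2 fold change of 2.09 ± 0.78 (SE) for Nr4a2, with an adjusted p of 0.999, 1.65 ± 0.40 for Nr4a1 (adjusted p 0.545) and 2.10 ± 0.42 for Nr4a3 (adjusted p 0.465). With no filter on low counts Nr4a1 and Nr4a3 were both called there (adjusted p 3.4e-06 and 0.000443), in a fit that called 98 genes in all, against 0 with the filter. Leaving out 1 mouse at a time gave 0.94 to 2.82 for Nr4a1 and 1.59 to 2.88 for Nr4a3. The same comparison gave 0.05 ± 0.38 for Egr1 and 0.07 ± 0.35 for Egr2. NegSelected against NoSelection gave 2.30 ± 0.44 for Nr4a3, an unadjusted p of 0.000655 that adjusted to 1.00 over all genes, and 0.98 ± 0.39 for Egr2, 0.75 ± 0.40 for Egr1, 0.60 ± 0.38 for Nr4a1 and -0.16 ± 0.63 for Nr4a2. PosSelected against NoSelection gave -2.25 ± 0.75 for Nr4a2 and -1.05 ± 0.41 for Nr4a1, against 0.91 ± 0.38 for Egr2, 0.70 ± 0.39 for Egr1 and 0.20 ± 0.50 for Nr4a3. OT2 against OT1 gave values between 0.13 ± 0.32 for Egr1 and 0.84 ± 0.58 for Nr4a2.

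The other genes of the pathway were read on lists drawn up by function, with earlier results of these data known. The comparison was NegSelected against PosSelected, where 0 of 9092 genes were called (0.0%), so a count of 0 is no result about a list. Of the 16 signal feedback genes that passed the filter (18 listed, such as the phosphatase gene Dusp2) none was called in NegSelected against PosSelected, with a median log2 fold change of 0.28 against -0.01 over all genes. Of the 15 tested genes linked to deletion and agonist selection (16 listed) none was called, 14 were above 0, where 49.3% of all genes were, and the median was 0.75. Of 12 tested upstream factors (NFAT, MEF2, SRF and ELK genes, 14 listed) none was called and the median was 0.13. Of 14 tested AP-1 and immediate early genes none was called and the median was -0.22.

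**Figure D2:**
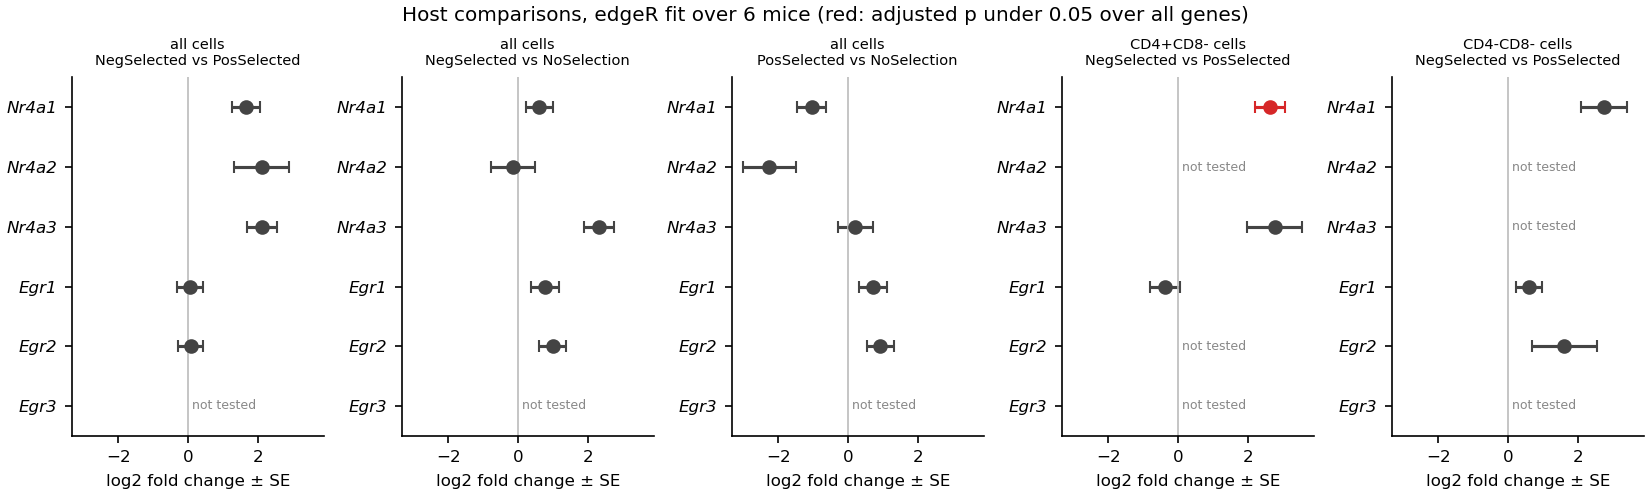
Log2 fold change ± SE between hosts from the edgeR fit over 6 mice, for all cells and within 2 antibody gates; red marks an adjusted p under 0.05 over all genes, and genes under the filter are written as not tested. Nr4a1 in CD4+CD8- cells, at 2.61, is the point past the threshold.

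By CD4 and CD8A antibody, 198 cells were CD4+CD8+, 344 CD4+CD8-, 219 CD4-CD8+ and 570 CD4-CD8-. Thresholds came from a mixture of 2 normal distributions per antibody; 251 cells lay within 0.5 log2 units of one, and 1016 cells (76.3%) kept their gate when raw UMIs were used. Gate makeup differed by mouse: CD4-CD8- cells were 74.8%, 31.9% and 69.6% of the OT1 mice (NoSelection, PosSelected, NegSelected) and 47.2%, 9.84% and 18.6% of the OT2 mice. Any of the 6 RNAs was found in 29.8% of CD4+CD8+, 25.0% of CD4+CD8-, 39.7% of CD4-CD8+ and 20.9% of CD4-CD8- cells. Median UMIs per cell in these gates were 2404, 3267.5, 5547 and 5222. After thinning to 1500 UMIs the shares were 26.2%, 18.5%, 26.4% and 9.93%, so that at equal depth the CD4-CD8- cells had the lowest share.

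Egr1 was detected in 23.7% of CD4+CD8+ cells, 17.2% of CD4+CD8-, 28.8% of CD4-CD8+ and 14.6% of CD4-CD8- cells (22.0%, 13.3%, 18.8% and 7.22% after thinning). Its level in CD4+CD8+ cells was 264, 228 and 402 CPM in the OT1 mice and 35.2, 360 and 321 CPM in the OT2 mice, in the order NoSelection, PosSelected, NegSelected. In CD4-CD8- cells it was 72.6, 85.5 and 87.4 CPM in the OT1 mice and 72.2, 41.6 and 173 CPM in the OT2 mice. The double negative value was the lower of the pair in 5 of 6 mice, all but OT2 NoSelection, whose double positive value rested on 3 UMIs.

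The edgeR test by gate had mouse as a block and 21 sums of at least 10 cells. The OT1 NegSelected double positive sum had 9 cells and did not enter. Nor did the CD4-CD8+ sums of OT2 NoSelection (3 cells) and OT2 PosSelected (8 cells). In that test Egr1 was lower in CD4-CD8- than in CD4+CD8+ cells, by a log2 fold change of -1.23 ± 0.30 (adjusted p 0.0083, 12.7% of 4374 genes called). Without the OT1 NoSelection mouse its adjusted p was 0.058, and without cells near a threshold it was 0.078. Gates from raw UMIs gave -0.69. The gamma delta T cell genes were higher in the same comparison, 5 of 5 tested, with a median log2 fold change of 6.63, and summed to 2202 CPM in CD4-CD8- and 148 CPM in CD4+CD8+ cells, while the 6 T cell markers summed to 3813 and 12072 CPM; their part in the Egr1 result was not tested.

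Egr1 was also lower in CD4+CD8- than in CD4-CD8+ cells, by -1.18 ± 0.31 (adjusted p 0.031, 3.66% of genes called). That call was lost without the OT1 NoSelection, OT1 PosSelected, OT1 NegSelected or OT2 NegSelected mouse, and the value was -0.14 without cells near a threshold. These were all the mice with a sum in both gates, so the call was lost without any mouse that informed it. CD4+CD8- against CD4+CD8+ called 10.3% of genes and none of the 3 tested genes of the set, with 2.63 ± 1.07 for Nr4a3, 1.43 ± 0.66 for Nr4a1 and -0.64 ± 0.31 for Egr1. CD4-CD8+ against CD4+CD8+ called 5.4% of genes and none of the 3, with 0.90 ± 1.24 for Nr4a3, 0.35 ± 0.73 for Nr4a1 and 0.54 ± 0.32 for Egr1.

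The remaining genes were too sparse for the test by gate, and are given as shares. Egr2 was in 7.07% of CD4+CD8+, 4.36% of CD4+CD8-, 9.59% of CD4-CD8+ and 2.63% of CD4-CD8- cells (5.36%, 3.03%, 3.85% and 1.26% after thinning). Nr4a2 was in 2.02%, 0.872%, 4.11% and 2.46% of these gates, and Egr3 in 1.52%, 0.872%, 5.48% and 1.93%. Both had 0 of 330 CD4+CD8- cells with a UMI after thinning, which does not separate that gate from the others at this depth.

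**Figure D3:**
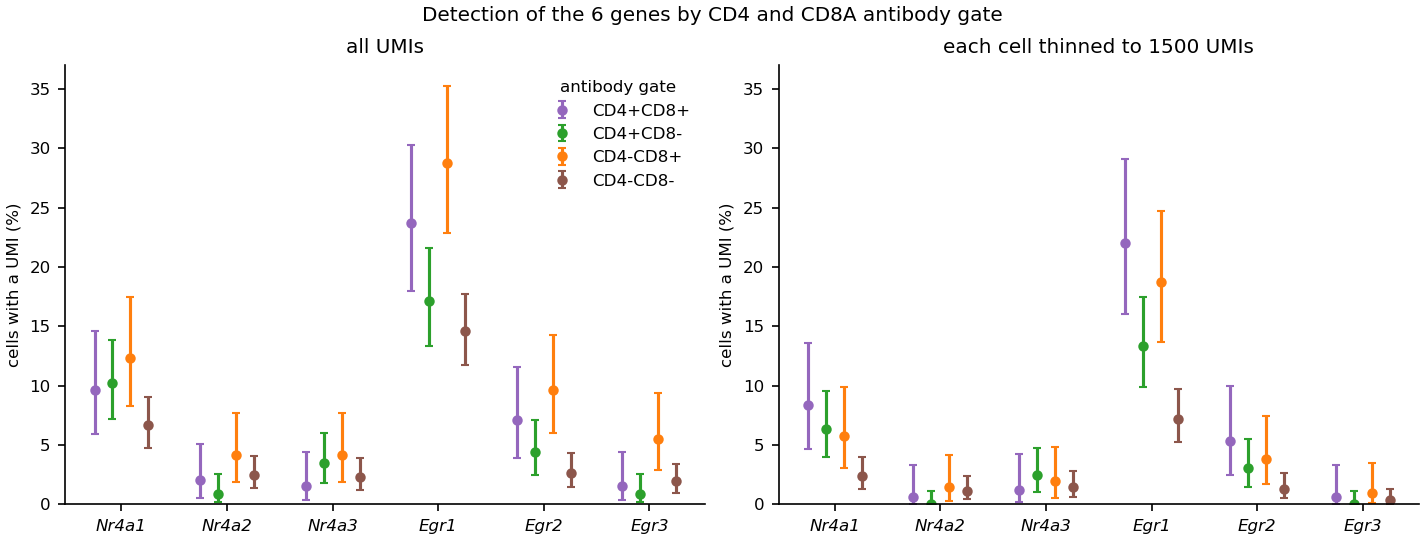
Share of cells with at least 1 UMI of each gene in 4 antibody gates, with all UMIs at left and with each cell thinned to 1500 UMIs at right; bars are exact Clopper-Pearson 95% intervals over cells, which cover counting error only. The Egr1 share in CD4-CD8- cells is 14.6% at left and 7.22% at right, the lowest of the 4 gates in both.

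Within CD4+CD8- cells, Nr4a1 was the gene of the set that passed the threshold between hosts. Its level was 207, 90.8 and 285 CPM in the OT1 mice (NoSelection, PosSelected, NegSelected) (3 of 17, 7 of 58 and 4 of 23 cells with a UMI) and 21.4, 25.4 and 302 CPM in the OT2 mice (1 of 10, 12 of 195 and 8 of 41 cells). Both NegSelected values were above both PosSelected values, with the OT1 NoSelection mouse between them. A single cell held 81.2% of the 16 UMIs in that mouse, 56.5% of 23 in OT1 PosSelected, 46.4% of 28 in OT1 NegSelected and 33.3% of 45 in OT2 NegSelected. Without that cell these levels were 40.6, 40.3, 158 and 204 CPM. The edgeR log2 fold change of NegSelected against PosSelected was 2.61 ± 0.43, with an adjusted p of 0.0073, in a comparison that called 11 of 2595 genes (0.424%). The call rested on both OT2 mice: without OT2 PosSelected the value was 1.94 (adjusted p 0.078), without OT2 NegSelected 1.52 (adjusted p 0.41), and DESeq2 gave 2.73 (adjusted p 0.084).

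The other 10 called genes in that comparison held 2 costimulatory receptor genes, Tnfrsf9 (4-1BB, 4.24 ± 0.46) and Tnfrsf18 (GITR, 1.98 ± 0.37), and Ikzf2 (Helios, 4.13 ± 0.46), a factor of agonist-selected cells. Also called were the ERK phosphatase gene Dusp5 (2.58 ± 0.48), Tagap (2.98 ± 0.58), Ecm1 (2.76 ± 0.48), Igfbp4 (1.54 ± 0.30), Apobec3 (1.65 ± 0.35) and Cdk8 (0.48 ± 0.10), with Gm20400 lower (-1.97 ± 0.40). These 10 are all of the other calls and were not picked.

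Nr4a3 in CD4+CD8- cells was 0 (a limit of 38.8), 39.5 and 142 CPM in the OT1 mice and 21.4, 8.48 and 127 CPM in the OT2 mice. The NegSelected mice were again the 2 highest, and the 8.48 of OT2 PosSelected was 5 UMIs in 1 cell. The log2 fold change of NegSelected against PosSelected was 2.76 ± 0.78, with an adjusted p of 0.31. Egr1 in the same cells was 194, 103 and 81.3 CPM in the OT1 mice and 42.7, 209 and 154 CPM in the OT2 mice, with -0.39 ± 0.43 for NegSelected against PosSelected. In each receptor its NegSelected mouse was below its PosSelected mouse, the opposite order to Nr4a1, but the counting intervals overlapped both times. For OT1 they were 35.1 to 160 (NegSelected, 8 UMIs) and 67.0 to 150 CPM (PosSelected). For OT2 they were 97.7 to 231 (NegSelected) and 173 to 249 CPM (PosSelected). The order of these Egr1 values was thus within counting error. NegSelected against NoSelection called 0 genes (0.0%, 151 at an unadjusted p under 0.05, DESeq2 called 0), PosSelected against NoSelection 4 (0.154%) and OT2 against OT1 23 (0.886%), and none of the set in any of them.

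Within CD4-CD8- cells Nr4a1 was 20.3, 10.7 and 47.8 CPM in the OT1 mice (NoSelection, PosSelected, NegSelected) and 150, 0 and 138 CPM in the OT2 mice (12 of 51, 0 of 25 and 6 of 33 cells with a UMI). The 0 of OT2 PosSelected allows up to 25.0 CPM. The OT2 NoSelection and NegSelected mice were the 2 highest. A single cell held 62.1% of the 29 UMIs in OT1 NoSelection, 74.5% of 47 in OT1 NegSelected, 48.2% of 56 in OT2 NoSelection and 12 of 24 in OT2 NegSelected, and without it these levels were 7.71, 12.3, 79.9 and 70.8 CPM. OT2 against OT1 gave 1.94 ± 0.42 with an adjusted p of 0.041 (56 of 7324 genes called, 0.765%). The call was lost without the OT1 NoSelection (1.03), OT1 NegSelected (2.27) or OT2 NoSelection (1.06) mouse, and with DESeq2 (adjusted p 0.95). Over all cells, not this gate alone, the gamma delta T cell genes summed to 767 to 2094 CPM in the OT1 mice and 292 to 1004 CPM in the OT2 mice. They summed to 2202 CPM in CD4-CD8- cells and 136 to 344 CPM in the other gates, and gate makeup differed by mouse. The sums by mouse therefore do not show whether CD4-CD8- cells differed between receptors in these genes. The part of gamma delta genes in the Nr4a1 difference was not tested. Between hosts the test called 0 genes in NegSelected against NoSelection (0.0%, 95 at an unadjusted p under 0.05), NegSelected against PosSelected (0.0%, 157) and PosSelected against NoSelection (0.0%, 139), and DESeq2 called 0 in each. The value for Nr4a1 in NegSelected against PosSelected was 2.73 ± 0.66 (adjusted p 0.86). The CD4+CD8+ and CD4-CD8+ gates were not tested between hosts, since a mouse had fewer than 10 cells in each.

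**Figure D4:**
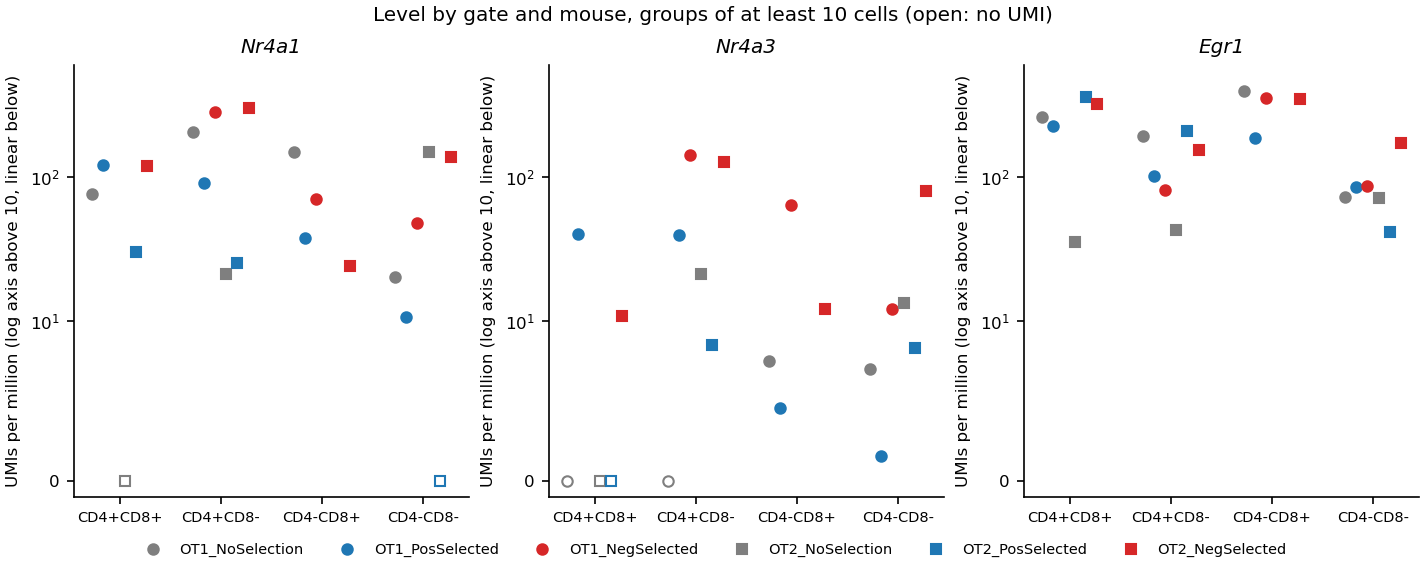
Level of Nr4a1, Nr4a3 and Egr1, in UMIs per 1e6 RNA UMIs on a log axis that is linear below 10, for each mouse and gate with at least 10 cells (colour is host, shape is receptor, open symbols have no UMI). In CD4+CD8- cells the 2 NegSelected mice are at 285 and 302 for Nr4a1, and Egr1 in CD4-CD8- cells runs from 41.6 to 173.

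The 6 RNAs were found together in the same cells, with the highest odds ratios on unthinned counts for Nr4a3 with Egr3, Nr4a1 with Nr4a3 and Egr1 with Egr2. Of the 37 cells with Nr4a3 RNA, 24 (64.9%) also held Nr4a1, and Nr4a3 was in 20.2% of Nr4a1-positive cells and 1.07% of the others. Of the 65 cells with Egr2 RNA, 55 (84.6%) also held Egr1, and Egr2 was in 21.8% of Egr1-positive cells and 0.927% of the others. The odds ratio within mouse and gate was 26.3 for Nr4a1 with Nr4a3 (35.1 after thinning) and 24.5 for Egr1 with Egr2 (8.84 after thinning). After thinning Egr1 with Egr2 lay below Egr2 with Egr3 (21.2 from 2 cells), Nr4a1 with Egr2 (11.6 from 12 cells), Nr4a2 with Nr4a3 (11.6 from 3 cells) and Nr4a1 with Nr4a2 (10.1 from 4 cells). Nr4a3 with Egr3 gave 32.9 from 11 cells with both (no thinned value, with 1 cell left), and Nr4a1 with Egr3 gave 16.6 from 17 cells. Nr4a1 with Egr1, the most frequent pair at 60 cells, gave 5.16. Nr4a2 with Egr1 gave the lowest value of the 15 pairs, 1.69 from 10 cells and 1.03 after thinning. Over families, 72 cells held RNA of both, 79 of Nr4a genes only and 200 of Egr genes only. Odds ratios are descriptions over 1331 cells that share mouse, library and depth, and carry no p.

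**Figure D5:**
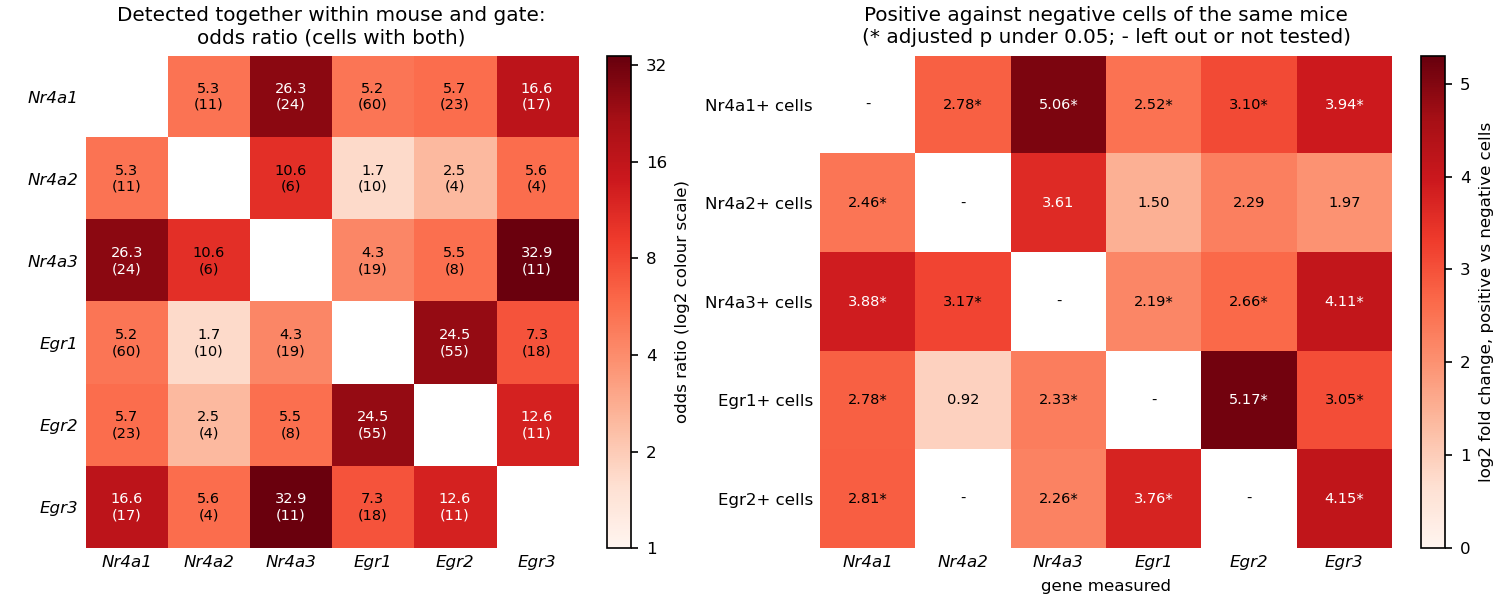
Left, odds ratio of detecting 2 of the genes in the same cell within mouse and gate, with the number of cells that held both. Right, log2 fold change of each gene in cells positive for another gene against the negative cells of the same mice (edgeR), where a star marks an adjusted p under 0.05; Nr4a3 in Nr4a1-positive cells, at 5.06, and Egr2 in Egr1-positive cells, at 5.17, are the 2 highest values.

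The same question was put to the mice as replicates, by summing counts over cells with and without RNA of 1 gene in each mouse and testing the positive sum against the negative sum with mouse as a block. Nr4a3 stood at 1.75, 2.48 and 6.94 CPM in the Nr4a1-negative cells of the OT1 mice (NoSelection, PosSelected, NegSelected) and at 58.3, 56.3 and 233 CPM in their Nr4a1-positive cells. In the OT2 mice it went from 2.42, 1.32 and 6.09 CPM to 44.3, 105 and 342 CPM in the same order of hosts. It was higher in positive cells of 6 of 6 mice, with a log2 fold change of 5.06 ± 0.35 (edgeR adjusted p 4.2e-09). Of the 5 other genes of the set all were called higher in Nr4a1-positive cells, where 0.706% of 6940 genes were, with 2.78 ± 0.60 for Nr4a2, 2.52 ± 0.33 for Egr1, 3.10 ± 0.42 for Egr2 and 3.94 ± 0.79 for Egr3. Sparse genes passed the filter on low counts mainly through the positive sums, so these counts of calls describe the genes and support nothing further. Nr4a1-positive cells had the higher median UMIs per cell in 6 of 6 mice, and with each cell thinned to 1500 UMIs the 3 genes that passed the filter were still called (the Nr4a1-positive fit gave Nr4a3 4.68, Egr1 2.27 and Egr2 3.59). Within CD4-CD8- cells alone the fit called 0 of all genes, and so none of the 3 tested, which is no result about the set. The values there were 5.97 for Nr4a3 (adjusted p 0.27), 2.78 for Egr1 (adjusted p 0.36) and 3.40 for Egr2 (adjusted p 0.49). Over all cells the Nr4a2 call was lost without the OT1 NoSelection, OT1 PosSelected or OT2 NegSelected mouse, and the Egr3 call without OT1 NoSelection.

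Egr2 stood at 1.34, 3.96 and 0 CPM in Egr1-negative cells and at 50.6, 41.8 and 140 CPM in Egr1-positive cells of the OT1 mice. In the OT2 mice it stood at 0, 5.98 and 2.26 CPM in negative and 88.6, 190 and 122 CPM in positive cells. All 6 mice had the higher value in positive cells, and the log2 fold change was 5.17 ± 0.39 (edgeR adjusted p 2.7e-10). In Egr1-positive cells 1.12% of 7578 genes were called higher, and 4 of the 5 others of the set were among them: Egr2, Nr4a1 (2.78 ± 0.28), Nr4a3 (2.33 ± 0.51) and Egr3 (3.05 ± 0.60). Nr4a2 was not called, at 0.92 ± 0.63, and was higher in 3 of 6 mice. The Nr4a3 call was lost without the OT2 NegSelected mouse (1.54) and after thinning (2.34, adjusted p 0.12). Within CD4-CD8- cells alone the fit called 7 of all genes, and all 3 tested genes of the set were among them (Nr4a1 3.81, Nr4a3 4.92, Egr2 6.19). The limit given above for sparse genes in Nr4a1-positive cells applies to these counts of calls too. Nr4a1 in Egr1-positive cells ranged from 51.2 to 498 CPM over the 6 mice, against 15.0 to 63.3 CPM in the negative cells, and the 2 PosSelected mice had the 2 lowest values in positive cells, 51.8 in OT1 and 51.2 in OT2.

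Nr4a3-positive cells could be tested in 4 mice, and Nr4a1 in them was 934, 397 and 729 CPM in the OT1 mice and 1104 CPM in the OT2 NegSelected mouse, against 34.8, 26.1, 49.0 and 89.2 CPM in the negative cells. All 5 others of the set were called higher, where 0.657% of 6394 genes were, with Nr4a1 at 3.88 ± 0.28, Nr4a2 at 3.17 ± 0.90, Egr1 at 2.19 ± 0.29, Egr2 at 2.66 ± 0.61 and Egr3 at 4.11 ± 0.84. DESeq2 did not call Nr4a2 and Egr2 there, and without the OT1 NoSelection mouse Egr2 and Egr3 were not called. Egr2-positive cells, in 5 mice, had all 4 tested genes of the set higher, where 0.886% of 6883 genes were, with Egr1 at 3.76 ± 0.17, Nr4a1 at 2.81 ± 0.24, Nr4a3 at 2.26 ± 0.49 (lost without OT1 NoSelection or OT1 NegSelected) and Egr3 at 4.15 ± 0.78. Nr4a3 was higher in 3 of these 5 mice, with 0 UMIs in the Egr2-positive cells of both PosSelected mice, and its call was lost after thinning (1.56, adjusted p 0.50). The fits for these 2 genes gave all genes nearly 1 common spread, so their very small p-values are not printed. The limit given above for sparse genes applies to the counts of calls in these fits, and to those in Nr4a2-positive cells below.

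Nr4a2-positive cells, again in 4 mice, called 5 of 6224 genes higher (0.0803%), and Nr4a1 at 2.46 ± 0.42 (adjusted p 0.019) was the gene of the set among them. The call was lost without the OT1 NoSelection (2.39) or OT1 NegSelected (2.19) mouse. Nr4a3 was at 3.61 ± 0.76 (adjusted p 0.056), Egr2 at 2.29 ± 0.82, Egr3 at 1.97 ± 1.07 and Egr1 at 1.50 ± 0.52. The 5 Nr4a2-positive cells of the OT1 PosSelected mouse had a median of 28161 UMIs, against 5314 in its other cells, and the part of such deep cells in the result was not tested for this gene. Egr3-positive cells reached 5 in only 3 mice and were not tested.

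Genes outside the set were then read from the fit on Nr4a1-positive cells. Of the called genes with a mean of at least 50 CPM, those with the largest fold beside Egr1 were Tagap (3.43 ± 0.41), Nfkbid (2.46 ± 0.32), an inhibitor of NF-kB, Tnfrsf9 (2.10 ± 0.50), Dusp5 (2.07 ± 0.25), Bcl2l11 (2.01 ± 0.37), which encodes the death factor Bim, the Egr corepressor gene Nab2 (1.58 ± 0.23) and Dusp2 (1.55 ± 0.22). Tnfrsf9 was higher in 4 of 6 mice, at 289 and 456 CPM in Nr4a1-positive cells of the OT1 and OT2 NegSelected mice, and had 0 UMIs in those of both PosSelected mice against 18 and 9 UMIs in their negative cells. Lower were Myo6 (-2.33 ± 0.42), Cd163l1 (-2.20 ± 0.35), Igfbp4 (-2.10 ± 0.39), Blk (-1.94 ± 0.34), Cpa3 (-1.91 ± 0.32), Sox13 (-1.80 ± 0.41), 5830411N06Rik (-1.71 ± 0.28) and S1pr1 (-1.71 ± 0.35), the egress receptor. Of the 15 deletion and agonist genes tested, 3 were called higher, where 0.706% of all genes were: Gadd45b (4.10 ± 0.57), Bcl2l11 and Xcl1 (3.12 ± 0.68). Gadd45b was higher in 6 of 6 mice, at 442 and 207 CPM in Nr4a1-positive cells of the OT1 and OT2 NegSelected mice and at 8.85 to 36.2 CPM in those of the other 4 mice. Of 15 TCR-induced genes 5 were higher, among them Cd69 (1.40 ± 0.25) and Cd5 (0.76 ± 0.17), and of 15 feedback genes 3 were. Of 14 AP-1 and immediate early genes 4 were higher and 1 lower (Klf6, -2.16 ± 0.41). None of 12 upstream factor genes was called. Of the 5 gamma delta genes 2 were lower (Trgc1 and Sox13). How far cells of gamma delta type take part in these differences was not tested. The limit given above for sparse genes applies to the counts of calls on lists too, here and in the fits below. The lists were also drawn up with earlier results of these data known.

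Gadd45b stood at 100, 31.8 and 1017 CPM in Nr4a3-positive cells of the OT1 mice (NoSelection, PosSelected, NegSelected) and at 251 CPM in the OT2 NegSelected mouse, against 4.90, 6.67, 4.08 and 25.5 CPM in the negative cells. Its log2 fold change was 4.70 ± 0.52, followed by Tagap (4.20 ± 0.37), Nfkbid (3.99 ± 0.34), Cd274 (PD-L1, 2.88 ± 0.41), Tnfrsf9 (2.88 ± 0.45), Cd69 (2.30 ± 0.29) and the calcium channel gene Orai1 (2.26 ± 0.36). Of 13 deletion and agonist genes 5 were called higher, where 0.657% of all genes were: Gadd45b, Nfkb1 (1.68 ± 0.29), Rel (1.81 ± 0.40), Relb (2.09 ± 0.47) and Bcl2l11 (1.72 ± 0.47). Of 11 upstream factor genes the 1 called was Nfatc1 (1.70 ± 0.33), and of 14 AP-1 and immediate early genes 7 were higher. Of 7 preselection genes 4 were lower, among them Arpp21 (-2.50 ± 0.48) and Themis (-1.26 ± 0.28).

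Cd69 stood at 65.7, 71.3 and 66.9 CPM in Egr1-negative cells of the OT1 mice and at 165, 107 and 400 CPM in their positive cells, and at 39.0, 43.4 and 61.1 CPM against 88.6, 292 and 360 CPM in the OT2 mice. It was higher in 6 of 6 mice (1.78 ± 0.21), as were Ier2 (1.50 ± 0.17) and Dusp2 (1.36 ± 0.15). Gm20628 (1.48 ± 0.29), Ly6d (1.27 ± 0.25), the histone gene H1f1 (1.25 ± 0.25) and the DNA synthesis gene Rrm2 (1.15 ± 0.23) completed the named genes. None of 14 deletion and agonist genes was called, where 1.12% of all genes were called higher, so a count of 0 is no result about that list. Of these genes Bcl2l11 was higher in Egr1-positive cells in 6 of 6 mice, as in Nr4a1-positive cells, and Gadd45b in 3 of 6. Of 14 AP-1 and immediate early genes 5 were higher and 1 lower (Klf2, -0.79 ± 0.15), of 16 feedback genes 2 were higher and 1 lower (Rgs1, -1.41 ± 0.37), and of 13 TCR-induced genes 3 were higher. The chemokine gene Ccl5 had 1 UMI in the Egr1-positive cells of each NegSelected mouse and 0 in those of the other 4 mice, against 21 to 458 UMIs in the negative cells. Also lower were Myo6 (-1.59 ± 0.34), Igfbp4 (-1.41 ± 0.15), Maf (-1.28 ± 0.26), Sox13 (-1.23 ± 0.19), Cpa3 (-1.17 ± 0.31), Itgae (-1.17 ± 0.25) and Tsc22d3 (-1.17 ± 0.17). Egr2-positive cells had Cd69 (2.41 ± 0.20), Ly6d (2.07 ± 0.30), Gm20628 (1.94 ± 0.32), Dusp2 (1.90 ± 0.17), Ier2 (1.84 ± 0.19) and Zfp36 (1.53 ± 0.19) higher, and 4 of 5 gamma delta genes lower. Whether deletion and agonist genes go with Nr4a more than with Egr positive cells was not tested.

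Nr4a2-positive cells had Tagap (3.08 ± 0.55), Kcnq5 (1.97 ± 0.37), Gadd45b (3.41 ± 0.68) and Fos (2.80 ± 0.56) higher beside Nr4a1, and Ifi27l2a (-3.71 ± 0.75), Arl5c (-3.59 ± 0.74), Il7r (-3.27 ± 0.64) and Rn7sk (-2.40 ± 0.38) lower. Fos and Tagap were called higher in all 5 fits, and Cd69, Dusp2, Dusp5, Ier2, Nab2 and Zfp36l1 in 4. The fits share cells, so these counts do not add up as evidence. Jun, the partner of Fos, was higher in Nr4a1-positive cells in 3 of 6 mice and in Egr1-positive cells in 2 of 6.

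Over single cells, the genes most like each member by Pearson correlation within mouse and gate (1331 cells) were listed among about 8200 genes with a UMI in at least 5% of cells, which leaves out Nr4a2, Nr4a3, Egr2 and Egr3. Outside the set, Tagap had the highest value for Nr4a1 (r 0.355), Nr4a2 (0.233) and Egr3 (0.403), Nfkbid for Nr4a3 (0.360), and Cd69 for Egr1 (0.370) and Egr2 (0.285). Between members, the highest values were 0.496 for Egr1 with Egr2 and 0.450 for Nr4a1 with Nr4a3, above the values of these 4 with the genes outside the set. Nr4a2 and Egr1 had an r of 0.031. These values describe cells that share mouse, library and depth.

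On the cell surface, none of 116 antibodies was called in cells positive for Nr4a1, Nr4a2, Nr4a3, Egr1 or Egr2 RNA by edgeR (0.0% in each). The numbers at an unadjusted p under 0.05 were 10, 8, 6, 16 and 9 in that order, and DESeq2 called 2, 4, 2, 13 and 7. The lowest p in Nr4a1-positive cells belonged to CD69, an early activation protein, at a log2 fold change of 0.45 ± 0.10 (adjusted p 0.184), with ratios of 1.22 to 1.80 and a higher value in 6 of 6 mice. ICOS.CD278 came next at 0.47 ± 0.11, also higher in 6 of 6 mice, and then ICAM1 at 0.41 ± 0.13, CCR2.CD192 at 0.51 ± 0.17 and CD2 at 0.40 ± 0.13. In Egr1-positive cells low p values belonged to VISTA (-0.71 ± 0.15, adjusted p 0.133), lower in 6 of 6 mice, CD28 (0.31 ± 0.07), higher in 6 of 6, CD24 (0.37 ± 0.09), a marker of immature thymocytes, higher in 6 of 6, and LY6C1-LY6C2 (-0.34 ± 0.10).

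In Nr4a3-positive cells ITA6.CD49F (-1.51 ± 0.35), CD69 (0.53 ± 0.17), higher in 4 of 4 mice, CCR2.CD192 (0.81 ± 0.26) and TCRVA8.3 (-0.45 ± 0.17) were among those with the lowest p values. In Egr2-positive cells these included LY6C1-LY6C2 (-0.61 ± 0.15), CD11A (-0.47 ± 0.13), VISTA (-0.65 ± 0.18) and CD28 (0.39 ± 0.11). In Nr4a2-positive cells they were CD200 (0.81 ± 0.22), CD86 (1.13 ± 0.33), CD120B (0.79 ± 0.24), ITA6.CD49F (-1.45 ± 0.47) and BTLA.CD272 (0.57 ± 0.20). None of these passed the adjusted threshold in the edgeR test.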

How the data were processed

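RNA and antibody counts of 1331 thymocytes from 6 mice were analysed. Per the submitters' processing notes, the authors used Cell Ranger 8.0.1, Seurat and the mm10 build, and deposited raw UMI counts per gene and per antibody; the filters on cells, the hashtag tool and any doublet removal are not given in the sources used here. No doublet caller was run. Hashtags assigned cells to mice.

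Counts were summed per mouse, or per mouse and gate (at least 10 cells) or positive and negative cells (at least 5 in each of at least 4 mice), and tested with edgeR 4.0.16 (TMM, filterByExpr, quasi-likelihood, Benjamini-Hochberg adjustment, threshold 0.05) in R 4.3.3. Host fits had terms for receptor and host, and gate and positive fits had mouse as a block. DESeq2 1.42.0 was an alternative. Gates came from scikit-learn 1.9.0 mixtures on log2(UMIs per 10000 antibody UMIs + 1). Intervals are exact 95% Poisson or Clopper-Pearson and cover counting error only, and a count of 0 allows 3 counts. The scripts were tested on simulated data. The genes named beyond the 6 were, of each list, 2 to 4 with the lowest p; of the positive fits, up to 8 called genes of largest fold (mean CPM 50 or more) and 5 antibodies of lowest p; and the 5 most correlated genes. The 6 genes, the lists and the motifs were chosen with earlier results of these data known. One gene and its protein are not reported here.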

Additional observations from a re-analysis of the deposited data

Results flagged for a closer look

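In 5 cases the 2 receptors had opposite directions for the same pair of hosts, each with 1 mouse a group, and these differences were not tested. The ratio of CPM in NegSelected to NoSelection was 0.569 in OT1 and 1.34 in OT2 for Nr4a2, on 18 UMIs or fewer per mouse. For Egr1 that ratio was 0.969 in OT1 and 3.93 in OT2. The ratio of NegSelected to PosSelected was 0.915 in OT1 and 1.24 in OT2 for Egr1, and 1.36 in OT1 and 0.865 in OT2 for Egr2. The ratio of PosSelected to NoSelection for Nr4a3 was 1.5 in OT1 and 0.653 in OT2. Of these, the 3.93 of Egr1 has a counting interval (2.66 to 5.97) that does not overlap the interval in the other receptor (0.791 to 1.18), and the intervals of the other 4 pairs overlap. A single cell held 27.3% of the Egr1 UMIs of OT1 NoSelection and 59.4% of those of OT2 NoSelection. With the top cell of each mouse left out, Egr1 in NoSelection and NegSelected was 98.0 and 106 CPM in OT1 and 25.3 and 216 CPM in OT2. The direction was then the same in both receptors.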

How the results depend on the processing

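With 1 mouse a group, a fit that leaves out a mouse leaves that mouse's host with 1 sample, assumed to vary like the others. The receptor comparisons keep at least 2 mice a receptor. No paired analysis was possible because each group held 1 mouse; mouse was a block in the gate and positive fits.

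With no filter on low counts, genes of the set called numbered 1 (NegSelected against NoSelection), 2 (NegSelected against PosSelected) and 1 (PosSelected against NoSelection) in all cells, 1 and 2 for the first 2 of these in CD4+CD8- cells, 1 each for NegSelected against PosSelected and PosSelected against NoSelection in CD4-CD8- cells, 2 for CD4+CD8- against CD4+CD8+, 3 for CD4+CD8- against CD4-CD8+ and 2 in Nr4a2-positive cells. CD4+CD8- against CD4-CD8+ had 0 called without the deepest cells, with capped UMIs, with no mouse term, with 20 cells a sum, without cells near a threshold and with raw-scale gates. CD4+CD8- against CD4+CD8+ had 2 with 20 cells a sum and 1 without cells near a threshold, and CD4-CD8- against CD4+CD8+ had 0 without those cells and with raw-scale gates. DESeq2 called 0 in CD4+CD8- cells (NegSelected against PosSelected), 0 in CD4-CD8- cells (OT2 against OT1), 3 in Nr4a3-positive and 2 in Nr4a2-positive cells, where other size factors (RLE) also gave 2. Thinned cells gave 2 (Egr1-positive), 2 (Egr2-positive) and 3 (Nr4a1-positive), CD4+CD8- cells alone 1 (Egr1-positive) and CD4-CD8- cells alone 0 (Nr4a1-positive). Over all genes, the fit on CD4+CD8- cells alone called 6 (Egr1-positive) and that on CD4-CD8- cells alone 0 (Nr4a1-positive). DESeq2 called 13, 7, 2, 4 and 2 antibodies in Egr1-, Egr2-, Nr4a1-, Nr4a2- and Nr4a3-positive cells, and thinning gave 5 in Nr4a1-positive cells. Cells with any of the 6 RNAs after thinning were 12.1%, 19.3% and 17.1% in OT1 and 9.28% and 16.2% in OT2 NoSelection and PosSelected.

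Directions that turned, all in values that were not called, were these. For NegSelected against PosSelected Egr1 was -0.034 with equal cells per mouse and -0.075 with capped UMIs, and Egr2 -0.0087 without receptor or host term and -0.028 with capped UMIs. Egr1 was -0.022 in OT2 against OT1 with equal cells, and Nr4a3 -0.041 in PosSelected against NoSelection without the deepest cells. For CD4-CD8+ against CD4+CD8+ Nr4a1 was -0.41 with DESeq2 and -1.12 with raw-scale gates, Nr4a3 -0.65 with raw-scale gates, and Egr1 -0.40 without cells near a threshold and -0.25 with raw-scale gates. For CD4-CD8- against CD4+CD8+ Nr4a1 was 0.032 without cells near a threshold and Nr4a3 -0.15 with raw-scale gates. For PosSelected against NoSelection Egr1 was -0.10 in CD4+CD8- cells without the deepest cells, and in CD4-CD8- cells -0.027 with DESeq2 and -0.25 without the deepest cells.

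Leaving out each mouse in turn gave these ranges. In all cells Nr4a2 ran from -0.96 to 0.65 (NegSelected against NoSelection, 0 to 1 called), Egr1 from -0.53 to 0.55 and Egr2 from -0.33 to 0.44 (NegSelected against PosSelected, 0 to 2), Egr1 from -0.28 to 0.62 (OT2 against OT1, 0 to 1) and Nr4a3 from -0.62 to 0.67 (PosSelected against NoSelection, 0 to 1). In CD4+CD8- cells Egr1 ran from -1.42 to 1.82 (NegSelected against NoSelection, 0 to 1), from -0.81 to 0.34 (NegSelected against PosSelected, 0 to 2), from -0.12 to 1.01 (OT2 against OT1, 0 to 1) and from -0.99 to 2.24 (PosSelected against NoSelection), where Nr4a1 ran from -2.10 to 0.83 and Nr4a3 from -0.59 to 5.68, and Nr4a3 in OT2 against OT1 from -1.51 to 0.23. In CD4-CD8- cells Nr4a1 ran from -0.41 to 1.43 (NegSelected against NoSelection), Egr1 from -0.37 to 0.40 (OT2 against OT1, 0 to 1) and from -1.06 to 0.40 (PosSelected against NoSelection, 0 to 1), and NegSelected against PosSelected had 0 to 1. For CD4-CD8+ against CD4+CD8+ Nr4a1 ran from -0.22 to 0.79 and Nr4a3 from -0.12 to 2.75, for CD4-CD8- against CD4+CD8+ Nr4a1 from -1.41 to 0.12 and Nr4a3 from -0.84 to 2.57 (0 to 1), and the other gate comparisons had 0 to 1. Positive fits had 3 to 5 (Nr4a1), 0 to 4 (Nr4a2) and 2 to 5 (Nr4a3). The cause was not tested. The cap, the CD4-CD8- restriction of the positive fits and odds ratios within depth bins were chosen after seeing the data. Several single-gate and thinned fits and all Egr3-positive fits were not run for want of mice with enough cells.

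Counts over all genes moved too. With no filter, all cells had 54 (NegSelected against NoSelection), 98 (NegSelected against PosSelected), 589 (OT2 against OT1) and 280 (PosSelected against NoSelection) genes called in place of 0, 0, 97 and 1, and DESeq2 called 33 for the last. Raw-scale gates gave 95, 21, 37 and 199 in place of 451, 160, 236 and 556 for CD4+CD8- against CD4+CD8+, CD4+CD8- against CD4-CD8+, CD4-CD8+ against CD4+CD8+ and CD4-CD8- against CD4+CD8+. DESeq2 called 50 of all genes in place of 150 in Egr1-positive, 27 in place of 122 in Egr2-positive, 74 in place of 112 in Nr4a1-positive and 32 in place of 83 in Nr4a3-positive cells, and 2 in place of 11 in CD4+CD8- cells (NegSelected against PosSelected).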
